A study of Mus musculus with 4 samples.

Results

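The comparison set the arrays taken 2 h and 4 h after foot shock against those taken 1 h and 6 h after it, to find transcripts with a transient course in mouse hippocampal CA1. The arrays were assigned by their sample titles, 2 to each side, and they are all 4 arrays of the series. Young male C57BL/6J mice were put in the context 2 h beforehand and received 3 shocks of 0.5 mA, a condition the labels name shock alone. All 4 groups had this treatment, so what differs between them is the time at which total RNA was taken. The number of animals behind each sample is not stated in the labels, and unshocked mice were not analysed here.

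A course that is high or low in the middle hours is one form that a response to a brief stimulus can take. A response already at its height by 1 h would not have this form. Without unshocked mice, neither a change from baseline nor a return to it can be seen. In hippocampal neurons, calcium entry and cyclic AMP activate kinases that act on transcription factors already present in the cell. These switch on immediate early genes such as Fos and Egr1 within minutes, and the proteins made from them act on later genes over the following hours. Stress hormones reach the hippocampus over the same period and act through the glucocorticoid receptor.

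Each array reads 12488 probe sets, groups of short oligonucleotides that together report 1 transcript, and each probe set has 1 intensity per array. Values below 100 were set to that floor, log2 was taken, and the mean of 1 h and 6 h was subtracted from the mean of 2 h and 4 h. The 2 arrays of a side are different times and not repeats of one condition. A probe set was called apart when both arrays of one side lay beyond both of the other and the means differed by at least 1.5-fold. The pairing of 1 h and 4 h against 2 h and 6 h, which has no simple meaning in time, was treated in the same way as a reference for noise. The difference was also tested with limma, which takes the 2 times of a side as replicates and so counts any change between them as spread. An exact permutation test of 2 arrays against 2 cannot give a two-sided p below 0.333.

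The arrays differed in a measure of RNA quality and in the level of a choroid plexus transcript. Whether the tissue taken differed was not tested. For actin, the control probe sets near the 3' end over those near the 5' end gave a ratio that is higher where RNA or its copies are shorter. It was 2.70 at 2 h and 1.74 to 1.84 on the other arrays. The same ratio for Gapdh was 4.82 at 2 h and 3.24 to 3.98 on the others. Ttr, a transcript of the choroid plexus, read 4485 at 6 h and 89.8 to 198 on the others. So each side held 1 array that stood apart in some way. The arrays of a side were no more alike than arrays of different sides. The SD of log2 differences over the probe sets tested was 0.43 between 2 h and 4 h and 0.40 between 1 h and 6 h. Across the sides it ran from 0.375 between 4 h and 6 h to 0.447 between 2 h and 6 h.

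Over the whole array, slightly more transcripts set the middle hours apart from the first and last hours than set the reference pairs apart, and the difference between the pairings was not tested. Of the 7448 probe sets whose mean intensity reached 100, 166 were apart and higher at 2 h and 4 h, which is 2.23%, and 146 were apart and lower, which is 1.96%. In the reference pairing 138 were higher at 1 h and 4 h, 1.85%, and 162 lower, 2.18%. In either direction this came to 4.19% of probe sets against 4.03% in the reference. Taking each of 5683 genes by its brightest probe set, 2.06% were higher and 1.71% lower in the middle hours, 3.77% together. The reference gave 1.78% higher and 1.88% lower, 3.66% together. At 2-fold or more, 24 were higher and 26 lower in the middle hours, against 22 and 24 in the reference. limma called 0 of 7448 probe sets at an adjusted p under 0.05 in either pairing. Its unadjusted p was under 0.05 for 280 probe sets, 3.76%, in the middle against first and last hours and for 255, 3.42%, in the reference. The smallest adjusted p in limma was 0.213, for a probe set of Prp2, so no gene below is said to have changed.

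**Figure D1:**
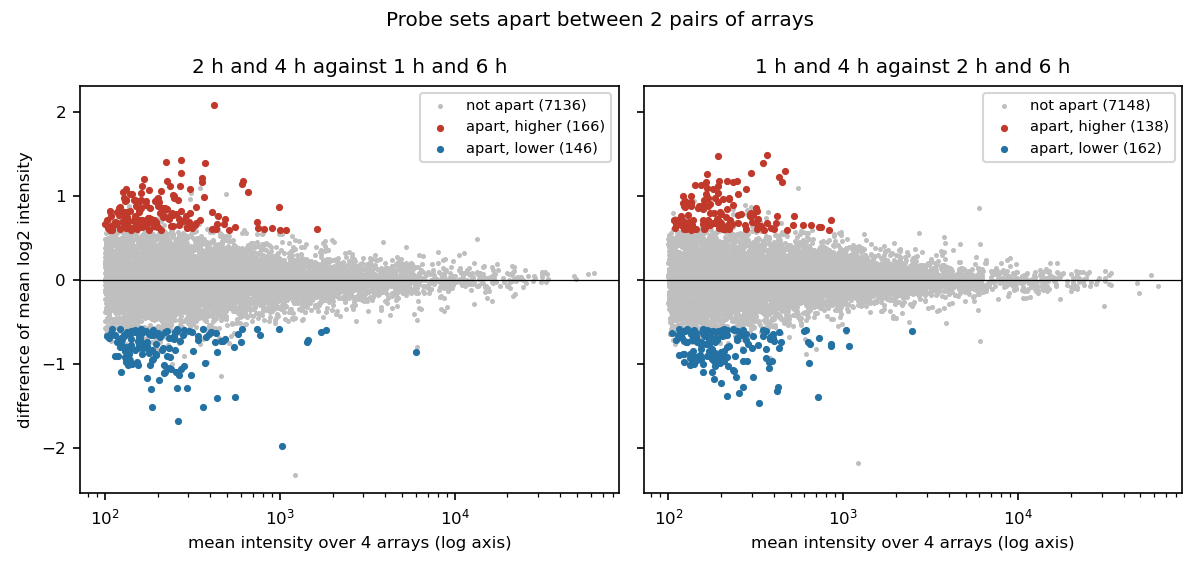
Difference of mean log2 intensity between 2 pairs of arrays, against the mean intensity over the 4 arrays on a log axis, with a point for each of 7448 probe sets. Left, 2 h and 4 h against 1 h and 6 h, with 166 higher and 146 lower; right, the reference of 1 h and 4 h against 2 h and 6 h, with 138 and 162. The clouds have nearly the same width, with an SD of 0.286 and 0.282.

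The probe sets apart were mostly dim. Their median of the mean intensity was 179 for those higher and 189 for those lower, against 438 for all tested. Between 100 and 200 intensity units 9.85% of probe sets were apart, from 200 to 500 it was 4.91%, in the next class 1.21%, and in the brightest 0.472%. The reference gave 9.50%, 4.95%, 1.14% and 0.157% in the same classes. In that brightest class 9 of 1907 were apart in the middle hours and 3 in the reference, and in the dimmest 172 and 166 of 1747. Probe sets with the suffix _r_at, for which the array's designers relaxed their selection rules, were apart in 9.45% of cases against 3.87% of plain ones. These shares were 7.35% and 3.79% in the reference.

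**Figure D2:**
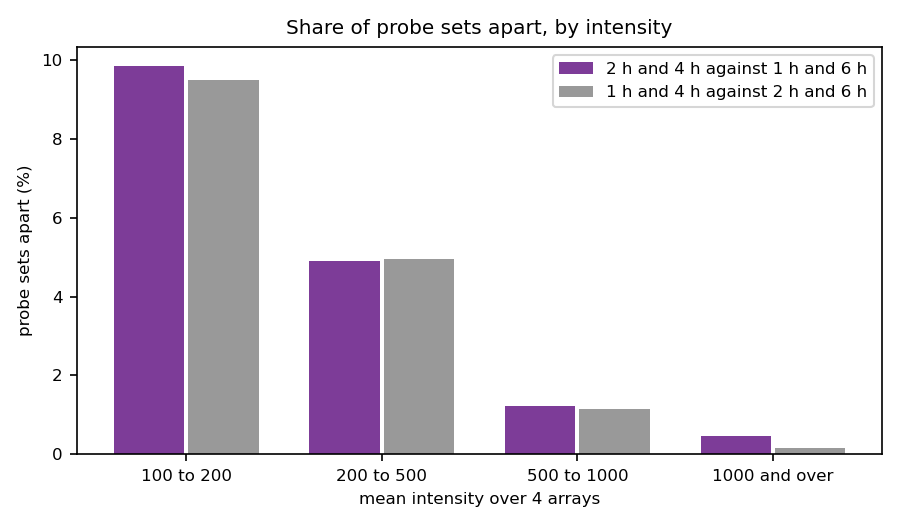
Share of probe sets apart, in percent, in 4 classes of mean intensity, for the middle against first and last hours (purple) and the reference pairing (grey). The share falls from 9.85% in the dimmest class to 0.472% in the brightest, and the grey bars follow it from 9.50% to 0.157%.

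Among genes higher at 2 h and 4 h, a probe set of Prp2 lay farthest apart. From 1 to 6 h it read 170, 752, 612 and 151, a difference of 2.08 (log2, SE 0.24 in limma). The lower of the middle arrays was 3.61-fold above the higher of the others. The other probe set annotated to Prp2 was apart in the opposite direction, at 170, 131, 107 and 256, so the pair gives no direction for the gene.

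Amacr, a racemase of branched-chain fatty acid breakdown, came next, at 160, 306, 469 and 155 from 1 to 6 h. Its difference was 1.27 (SE 0.30). Tcp1, a subunit of the chaperonin that folds actin and tubulin, read 191, 504, 482 and 254, a difference of 1.16 (SE 0.25). Zic2, a zinc finger factor of forebrain and thalamic development, read 114, 308, 320 and 171, and its other probe set stayed under the floor throughout. In each of these 3 genes the middle arrays stood at least 1.80-fold above the outer ones.

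Ddx6, an RNA helicase of processing bodies, read 387, 681, 997 and 363 on its _r_at probe set. Its second probe set had the same form, at 709, 844, 905 and 511, a difference of 0.54, while another, at 877, 569, 693 and 546, did not. Nefm, the medium neurofilament subunit, read 167, 466, 368 and 232. Fuca1, a lysosomal fucosidase, read 131, 266, 270 and 142, with nearly equal values within each side. Mknk1, a kinase that phosphorylates the cap-binding protein eIF4E, read 193, 562, 409 and 304.

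Several genes reached the top on 1 low or high array. Csf3r, the receptor for granulocyte colony-stimulating factor, read 199 at 1 h against 828, 792 and 644, and Tcf7l2, a Wnt pathway factor, read 121 at 1 h against 494, 471 and 359. Without the 1 h array their differences were 0.33 and 0.43 and neither was apart. Zfp106 read 653, 895, 829 and 266, low at 6 h, and without that array its difference was 0.40. Tpst2, a tyrosylprotein sulfotransferase, read 158, 455, 224 and 162, and without the 2 h array its difference was 0.49. Iqgap2, a scaffold protein, read 170, 268, 296 and 108 and was apart without any one of the arrays.

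Among genes lower at 2 h and 4 h, a probe set of Limk1 lay farthest apart. Limk1 encodes a kinase that inactivates the actin-severing protein cofilin and shapes dendritic spines. This _r_at probe set read 1441, 565, 300.2 and 1831, a difference of −1.98 (SE 0.29), with an adjusted p of 0.534 in limma. The second probe set of Limk1 read 336, 348, 280 and 319, a difference of −0.07, and did not share the form.

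Eif4ebp2, the main repressor of eIF4E in neurons, read 588, 263, 130 and 477 on 1 probe set. A brighter one was flat, at 1851, 1947, 1879 and 1848. Yif1a, a protein of transport between endoplasmic reticulum and Golgi, read 648, 169, 326 and 597, a difference of −1.41 (SE 0.32). Elf4, an ETS factor, read 306, 129, 119 and 263, and Tex2 read 220, 124, 115 and 266. Nudt14, a hydrolase of nucleotide sugars, read 363, 204, 127 and 328, and Memo1 read 386, 174, 131 and 258.

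Src, the founding member of its family of tyrosine kinases, read 208, 103, 103 and 199, just above the floor in the middle hours. Tradd, an adaptor of tumour necrosis factor receptors, read 505, 279, 225 and 489. Fancc, a Fanconi anaemia protein, read 224, 150, 133 and 533, with its highest value at 6 h. Ap5s1, a subunit of an adaptor complex, read 344, 119, 226 and 375. Nbl1, which binds and blocks BMP ligands, read 757, 135, 591 and 732. Its place rested on the 2 h array, since the difference without it was −0.33. Idnk read 384, 104, 207 and 239 and was likewise not apart without 2 h, at −0.55.

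**Figure D3:**
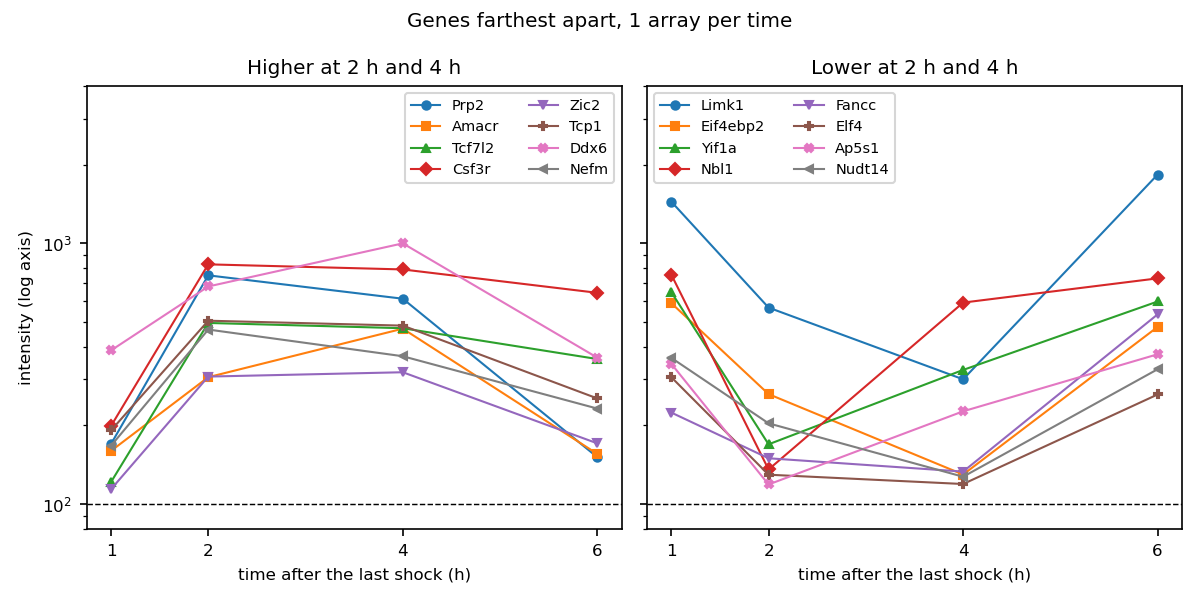
Intensity on a log axis against time after the last shock, for the 8 probe sets farthest apart in each direction, with 1 array per point and the floor of 100 as a dashed line. On the left Prp2 spans 151 to 752; on the right Limk1 spans 300.2 to 1831.

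Some genes crossed the floor, so their folds are bounds. In all, among the 7448 tested, 65 probe sets with 1 gene symbol were above 100 at 2 h and 4 h and at or below it at 1 h and 6 h. The opposite form was seen in 44. Such probe sets reach the mean of 100 only through the side where they are high. They were not counted in the reference pairing, so the 2 counts are not read as a direction. Pou2f2, an octamer-binding factor of lymphocytes and neurons, read 285 at 2 h and 157 at 4 h and was at least 2.12-fold higher than in the outer hours. Trim3, a ubiquitin ligase of the synapse, read 241 and 176 and was at least 2.06-fold higher. Tyk2, a Janus kinase of interferon receptors, read 392.3 at 1 h and 210 at 6 h and was at least 2.87-fold higher there than in the middle hours. For Pip4k2c, Ly6e and Traip the probe set that crossed the floor was dim and the other one was not apart, with differences of −0.04, −0.05 and 0.10.

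Other probe sets of the same genes gave little further evidence for the form. Of 269 probe sets apart with 1 gene symbol, 78 genes had another probe set among those tested, 94 in all. Of these 94, 55 differed in the same direction and 39 in the opposite one, against 44 and 52 of 96 in the reference pairing. Of the 94, 4 were themselves apart in the same direction and 2 in the opposite one, against 6 and 0 in the reference. In the reference pairing Prkd2, Pola2 and Krt33b each had 2 probe sets apart in a shared direction. In the middle hours Pdgfra and Sirpa each had 2 probe sets apart and lower. Pdgfra, the receptor of oligodendrocyte precursors, read 752, 594, 577 and 1028 on one and 146, 48.4, 122 and 247 on the other. Sirpa, a neuronal and myeloid receptor for CD47 that was named after its values were seen, read 321, 208, 246 and 363 on one and 164, 121, 91.4 and 181 on the other. Without 6 h the brighter probe set of Pdgfra was not apart, at −0.36. In both genes 6 h was the highest array, the array with Ttr at 4485. The part of tissue content in these values was not tested.

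Bright probe sets carry less noise, and 13 with a mean of at least 500 were apart and higher and 14 lower, of 3400. The reference gave 8 and 12. They were looked at as a group after their values were seen. Egr1, an activity-induced zinc finger factor, read 1277, 2193, 1738 and 1300 from 1 to 6 h, a difference of 0.60 (SE 0.15). Both middle arrays were at least 1.34-fold above the outer ones, and without the 2 h array the difference was 0.43 and not apart. Mtf2, a Polycomb partner, read 673, 1180, 1006 and 752, and its other tested probe set differed in the opposite direction, at 215, 152, 237 and 239. Hat1, a histone acetyltransferase, read 649, 975, 852 and 491, and Nap1l4, a histone chaperone, read 470, 733, 609 and 400. The second probe set of Hat1, at 142, 126, 88.3 and 98.4, did not share the form, with a difference of −0.09. Pik3r2, a regulatory subunit of phosphoinositide 3-kinase, read 597, 906, 1050 and 696. Without 1 h, Mtf2 and Pik3r2 were not apart, at 0.53 and 0.49, and without 6 h the same held for Hat1, at 0.49, and Nap1l4, at 0.51. Myh9, a non-muscle myosin, read 605, 756, 1068 and 569, and its second probe set, at 791, 852, 1104 and 957, overlapped between the sides.

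The bright ones that were lower in the middle hours included Wdr6, at 1928, 1165, 1034 and 1694, a difference of −0.72 (SE 0.14), and it was apart without any one of the arrays. Fbxw5, the substrate receptor of a ubiquitin ligase, read 2412, 1420, 1507 and 2042, a difference of −0.60 (SE 0.13). Its second probe set, at 654, 604, 575 and 707, was also lower on both middle arrays, by 0.21 (log2). Without 1 h the brighter probe set was not apart, at −0.48. Fam220a read 823, 504, 395 and 598, and was not apart without 1 h, at −0.42. Its second probe set differed in the opposite direction, at 163, 152, 185 and 40.5. Dynlrb1, a dynein light chain, read 629, 266, 564 and 724, and rested on the 2 h array, with −0.26 without it. Rbfox2, a splicing factor, read 670, 651, 292 and 798, low at 4 h alone, and its difference without that array was −0.17.

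Immediate early genes were the list with the most members apart and higher. The 4 were Egr1, Tiparp, Ptgs2 and Zfp36, of 33 measured, which is 12.1% against 2.06% of all 5683 genes. Shares were larger in 2 short lists, 25.0% for CA3 and dentate markers and 20.0% for thalamic markers. Tiparp, a mono-ADP-ribosyltransferase, read 162, 365, 177 and 110. Ptgs2, the inducible cyclooxygenase, read 110, 180, 144 and 92.4. Zfp36, which destabilises messenger RNAs, read 34.0, 125, 200.2 and 42.7, with both outer arrays below the floor, and was at least 1.58-fold higher. These 3 genes are dim, with means over the arrays of 204, 132 and 100.35. The lower middle array was 1.09-fold above the higher outer one for Tiparp and 1.30-fold for Ptgs2. At 4 h alone neither Tiparp nor Ptgs2 was 1.5-fold above the mean of the outer arrays. Zfp36 passed the filter at a mean of 100 only through its middle arrays, so its direction was set by the filter. Of the 1747 probe sets between 100 and 200 intensity units, 95 were apart and higher, a larger share than that of all genes. In the reference pairing 0 of 33 were apart in either direction.

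The upstream sequence of these 3 genes is shown because they lay on the same side as Egr1, whose protein binds GC-rich sites. Egr1 itself is left out here. The sequences are the 120 bases just before the start site, 5′ to 3′ on the gene's strand, from RefSeq on GRCm38.p6. Capitals mark an Egr site, searched as GCGNGGGCG on both strands.
Tiparp, chr3:65528327-65528446, plus strand: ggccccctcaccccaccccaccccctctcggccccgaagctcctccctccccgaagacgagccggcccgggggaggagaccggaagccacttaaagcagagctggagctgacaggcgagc
Ptgs2, chr1:150099911-150100030, plus strand: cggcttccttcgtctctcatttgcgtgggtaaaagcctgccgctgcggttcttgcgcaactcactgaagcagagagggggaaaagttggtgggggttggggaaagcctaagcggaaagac
Zfp36, chr7:28379229-28379348, minus strand: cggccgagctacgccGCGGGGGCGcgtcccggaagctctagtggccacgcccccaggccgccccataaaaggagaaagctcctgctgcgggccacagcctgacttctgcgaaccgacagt
Zfp36 held 1 such match in the 250 bases before its start, and the windows of Tiparp and Ptgs2 held none. In the 250 bases before their starts, the 3 genes held no cyclic AMP element (TGACGTCA), AP-1 site (TGANTCA) or E-box (CACGTG) on either strand. They held no TATA box as TATAAA, searched on the gene's strand alone. Bases after the RefSeq start were not searched, so these absences hold for that start and window alone.

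Across all genes apart, the motifs were found in few promoters. Promoters were found by symbol for 114 of 146 genes that were higher, for 96 of 121 that were lower and for 4576 of 5683 measured. An Egr site was held by 5.48% of the 146 promoters of the genes that were higher, 3.94% of the 127 of the genes that were lower and 9.0% of the 5947 of all genes measured. For the cyclic AMP element these shares were 0.685%, 3.94% and 2.44%, for the AP-1 site 1.37%, 5.51% and 4.74%, and for the E-box 7.53%, 3.15% and 9.0%. Over all 32851 promoters in the RefSeq table, 4.70% held an Egr site, 1.55% a cyclic AMP element, 6.75% an AP-1 site and 6.02% an E-box. These are matches of letters, 1 to 11 promoters in each group of genes apart.

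Of all the immediate early genes measured, 25 of 33 differed upward and 8 downward, with a median of 0.10 (log2), against 49.7% upward and a median of −0.001 over all genes. The highest array was 2 h for 22 members, 1 h for 7 and 4 h for 4. Fos, a subunit of the AP-1 factor, read 310, 607, 161 and 134, so its difference of 0.61 came with overlap, since 4 h lay below 1 h. Egr2, a relative of Egr1, read 144, 328, 32.5 and 122, also with 4 h lowest. Nr4a1, an orphan nuclear receptor, read 604, 996, 594 and 534, and Gadd45b, a stress gene, read 425, 570, 454 and 341. Klf4, a Krüppel-like factor, read 117, 161, 144 and 89.5 and had the transient form at 0.49. Ccn2, a matrix protein, was highest at 1 h, at 320, 192, 105 and 167.

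Without the 2 h array the median of the list was 0.00 and without 6 h it was −0.03, while without 1 h or without 4 h it was 0.30. The actin ratio of 2.70 belongs to that 2 h array. The part of RNA quality in the result was not tested.

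**Figure D4:**
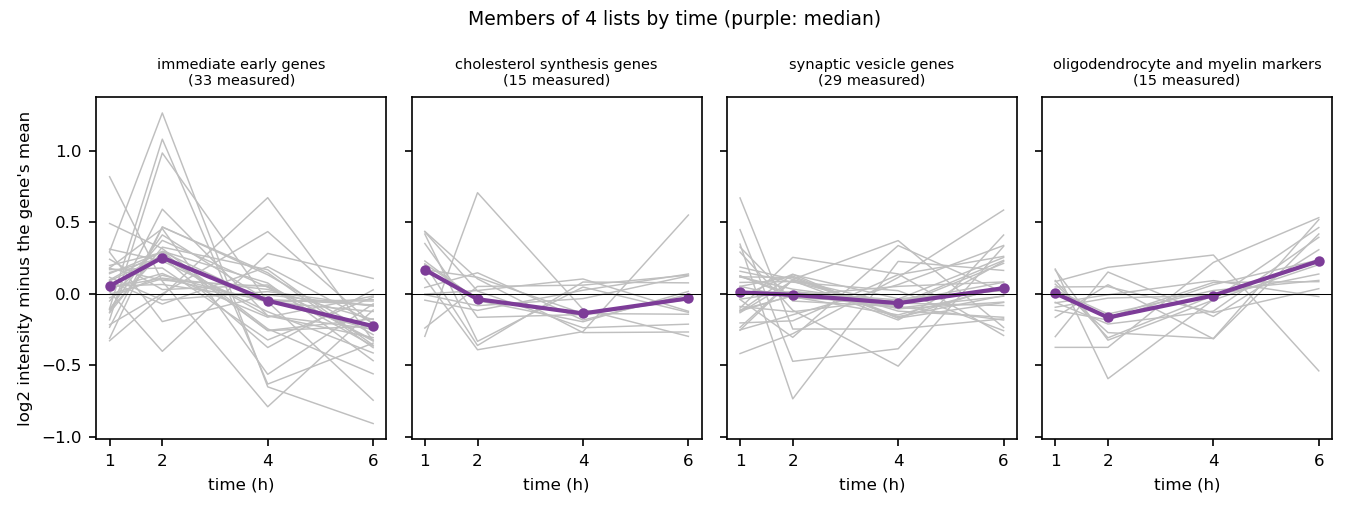
Course of each measured member of 4 lists, as log2 intensity minus the gene's own mean, against time, with the list's median in purple. The immediate early genes peak at 2 h with a median of 0.25 and end at −0.23, while the oligodendrocyte markers are highest at 6 h with 0.23.

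Genes that respond to glucocorticoids had a median of 0.07, with 18 of 25 upward, and 0.10 in the reference pairing. Without the 6 h array the median was −0.06, and without 1 h it was 0.22. Fkbp5, a chaperone of the glucocorticoid receptor and among its best known targets, read 1045, 1296, 1408 and 1024. Both middle arrays lay above the outer ones by at least 1.24-fold, and the difference of 0.38 (SE 0.13) was under the limit of 1.5-fold. Sgk1, a kinase that controls ion channels, read 2334, 2011, 1676 and 1514, with no transient form. Hsd11b1, which regenerates active hormone, read 520, 964, 942 and 968, low at 1 h alone. Mertk, a receptor for dying cells, read 226, 369, 220 and 157. Glul, glutamine synthetase, was the 1 member apart and lower, at 804, 411, 569 and 661, but its second probe set, at 530, 347, 445 and 294, had a difference of −0.01.

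Of the circadian clock genes 11 of 16 were upward, with a median of 0.06, or −0.01 without 2 h, and Per2 was apart. Per2, a repressor of the clock's feedback loop, read 120, 173, 198 and 103, a difference of 0.74 (SE 0.30). Rora, an activator in that loop, read 110, 153, 197 and 128 and lay just under the limit at 0.55. Per1, a target of CREB and of glucocorticoids, read 441, 444, 313 and 386. Among CREB and ATF factors 9 of 12 were upward and 0 apart, with a median of 0.09, and it was 0.14 in the reference. Atf3, a stress-induced factor, read 82.0, 116, 157 and 97.6 on 1 probe set and was highest at 1 h, at 199, on another.

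Late activity-regulated and neuropeptide genes had a median of 0.05, with 12 of 19 upward, and it was −0.06 without 2 h and −0.02 without 6 h. Bdnf, the neurotrophin of hippocampal plasticity, read 3226, 3307, 3809 and 3062, higher in both middle hours by a difference of 0.18 (SE 0.12). Inhba, an activin subunit, read 391.7, 235, 198 and 111 and had a difference of 0.04. Gpr3, a receptor that raises cyclic AMP without a ligand, was apart and lower, at 289, 59.4, 178 and 231. Nptx1, a pentraxin that clusters AMPA receptors, read 764, 644, 507 and 845, a difference of −0.49 (SE 0.19).

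Most cholesterol synthesis genes had a lower mean in the middle hours, but as a list they were high at 1 h alone. With each gene's own mean subtracted, the medians from 1 to 6 h were 0.17, −0.04, −0.14 and −0.03. The highest array was 1 h for 8 members and 6 h for 4. Of 15 measured, 12 were downward, and the median was −0.17, against 0.03 in the reference and −0.001 over all genes. Sqle, the squalene epoxidase, was apart and lower, at 798, 565, 616 and 1085, but without the 6 h array its difference was −0.44. Nsdhl, a sterol dehydrogenase, read 530, 370, 376 and 404, and Mvk, mevalonate kinase, read 467, 386, 348 and 403, both lower on both middle arrays. The other tested probe sets of Nsdhl, at 275, 186, 280 and 290 and at 429, 367, 331 and 347.5, overlapped between the sides. Their differences were −0.31 and −0.15. Mvd, mevalonate decarboxylase, went the other way, at 93.5, 201, 114 and 78.0, and was at least 1.51-fold higher. The median ran from −0.30 without 6 h to −0.06 without 1 h.

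Synaptic vesicle genes were downward in 22 of 29 cases, though by little, with a median of −0.06. Rab3b, a small GTPase of vesicle exocytosis, was apart at 569, 300, 319 and 554, a difference of −0.86 (SE 0.20), and its middle arrays were 1.74-fold or more below the outer ones. Stx2, a syntaxin of the plasma membrane, was apart at 482, 363, 277 and 495. The abundant members differed little: Snap25, a SNARE protein of the synapse, read 23476, 23583, 20663 and 21343, and Dnm1, a dynamin of vesicle retrieval, read 20832, 20874, 20089 and 21029. In the reference pairing 18 of 29 were downward and the median was −0.03.

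Translation factor genes were downward in 22 of 32 cases, with a median of −0.05. Eif4a1, the helicase that unwinds messenger leaders, read 694, 555, 577 and 689, and Eef2, the elongation factor, read 2593, 2336, 2002 and 2521. Eif3e, a subunit of an initiation complex, was apart and higher, at 454, 665, 529 and 286. Calcium and cyclic AMP signalling genes were upward in 14 of 22 cases, with a median of 0.08 and 0 members apart. Calm2, a calmodulin gene, read 299, 439, 341 and 298, and Prkcb, a protein kinase C, read 14758, 19755, 17248 and 17868.

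Receptors and channels held few members apart. Of 6 glutamate receptor genes 0 were apart, and Gria1, the AMPA receptor subunit of synaptic potentiation, was higher on both middle arrays on each of its probe sets. One read 6300, 6684, 7724 and 5558, a difference of 0.28 (SE 0.12), and the other 782, 903, 959 and 618, a difference of 0.42 (SE 0.17). Nsf, an ATPase of membrane fusion that also binds AMPA receptors, read 8124, 8896, 8777 and 6097. Pick1, a scaffold that binds AMPA receptors, was apart and higher on 1 probe set, at 224, 352, 394 and 240, and not on the other, at 110, 84.1, 208 and 229. Kcnj9, an inward rectifier subunit, was apart and lower on 1 probe set, at 391, 184, 174 and 262, while the other was mostly below the floor. GABA receptor and synthesis genes had a median of 0.01 over 8 and potassium channel genes −0.03 over 18.

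Housekeeping groups lay near 0. The median was 0.005 for 24 cytosolic ribosomal protein genes, −0.003 for 49 oxidative phosphorylation genes, −0.01 for 49 splicing factor genes and −0.01 for 20 glycolysis genes. For 41 proteasome and ubiquitin genes it was 0.03, for 30 heat shock and chaperone genes −0.04, for 23 unfolded protein response genes −0.02 and for 37 chromatin enzyme genes −0.05. Single members were apart. Atp5pb, a subunit of ATP synthase, read 297, 461, 393 and 185, and Trib3, a pseudokinase of the integrated stress response, read 219 at 2 h and 141 at 4 h and was at least 1.75-fold higher. Mbd1, a methyl-CpG binding protein, read 222, 118, 114 and 139, and was lower. The NF-kB inhibitor relative Bcl3, at 181 at 1 h and 167 at 6 h, was at least 1.74-fold higher there than in the middle hours. Medians were −0.06 for 22 MAP kinase genes, −0.04 for 11 NF-kB genes, −0.04 for 10 postsynaptic scaffold genes and 0.05 for 32 axon guidance genes, of which Efnb1, an ephrin, was apart and higher at 217, 288, 326 and 149.

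**Figure D5:**
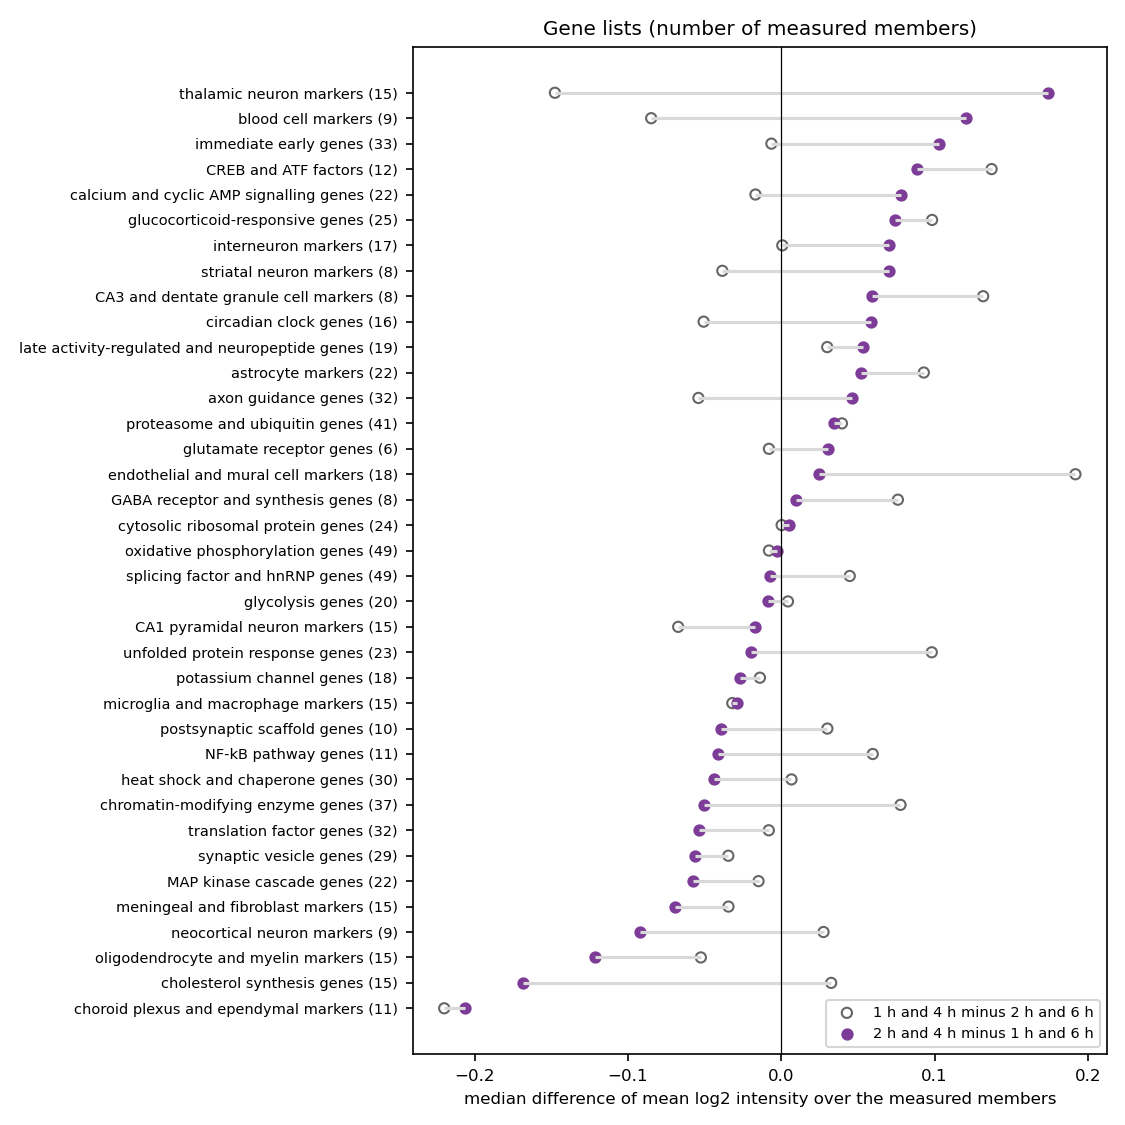
Median difference of mean log2 intensity over the measured members of 37 lists, for 2 h and 4 h minus 1 h and 6 h (purple) and for the reference of 1 h and 4 h minus 2 h and 6 h (open circles). The purple points run from −0.21 for choroid plexus markers to 0.17 for thalamic markers, and the open circles from −0.22 to 0.19.

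Medians over cell type markers ran from −0.21 to 0.17, and from −0.22 to 0.19 in the reference pairing. In bulk tissue fewer cells of a type cannot be told apart from less RNA per cell. Markers of CA1 pyramidal neurons had a median of −0.02 over 15 genes and 0 were apart, and markers of CA3 and dentate cells had 0.06 over 8, or −0.12 without 4 h. Of the latter 2 were apart and higher, 25.0% against 2.06% of all genes. They were Gpc4, a glypican, at 104, 216, 192 and 155, and Lct, at 245, 248, 583 and 240, high at 4 h alone. Thalamic markers had the highest median of the lists, 0.17, with 10 of 15 upward and Tcf7l2, Nefm and Zic2 apart and higher, which is 20.0% against 2.06% of all genes. In the reference it was −0.15, and it was 0.04 without the 2 h array. Prkcd, a thalamic protein kinase, read 525, 662, 536 and 516, and Calb2, calretinin, read 325, 402, 277 and 253, each highest at 2 h.

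Oligodendrocyte markers were downward in 13 of 15 cases, with a median of −0.12, and −0.05 in the reference. Nkx6-2, a myelin gene regulator, was apart and lower, at 218, 128, 188 and 267, as was Pdgfra. Cldn11, a claudin of myelin, read 680, 484, 588 and 698, and Mal, a myelin proteolipid, went the other way, at 1880, 2015, 2139 and 1219. The 6 h array was the highest for 12 of the 15, and without it the median was −0.05.

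The median of choroid plexus and ependymal markers was −0.21, with 7 of 11 downward, and the same list had −0.22 in the reference, where 6 h is again on the lower side of the subtraction. Igf2, a growth factor of choroid plexus and meninges, was apart and lower at 1242, 888, 1191 and 2381, and it was not apart without 6 h, at −0.27, or without 2 h, at −0.53. Ttr, at 111, 89.8, 198 and 4485, was not apart, since 4 h lay above 1 h. Without the 6 h array the median of the list was 0.00.

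The remaining cell types lay closer to 0. Medians were 0.05 for 22 astrocyte markers, −0.03 for 15 microglia and macrophage markers, 0.02 for 18 endothelial and mural markers and 0.07 for 17 interneuron markers. For 9 blood cell markers the median was 0.12, and it was −0.07 without 1 h and −0.06 without 2 h. For 8 striatal markers it was 0.07, and −0.01 without 6 h. It was −0.09 for 9 neocortical markers and −0.07 for 15 meningeal markers. Elane, a neutrophil elastase, was apart and lower, at 251, 93.2, 159 and 239. Lhx6, a factor of interneurons, read 576 at 1 h and 319 at 2 h, with a difference of −0.54 (SE 0.25), under the limit.

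The limit of 1.5-fold divides like values. Just inside it were Wdhd1, at 117, 178, 161 and 109, and Pelo, at 165, 342, 170 and 157, both higher. Just outside were Eml5, at 170, 301, 225 and 178, and Usp21, at 220, 477, 322 and 313. Among those lower, Pdgfra and Tyms-ps were just inside. Polb, a DNA polymerase of base excision repair, at 595, 368, 346 and 480, and Cct6b, at 169, 116, 109 and 168, were just outside.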

How the data were processed

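The deposited table holds linear intensity values for 12488 probe sets on 4 Affymetrix arrays, 1 per time. The authors had brought the values to a common level before deposit, since all 4 arrays had the same mean of 500.3 once 2% was trimmed from either end. Their software is not given in the sources used here. The number of arrays limits the precision.

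Gene names came from GEO's annotation of the platform: of 12422 other than 66 controls, 10833 had 1 symbol, 396 several and 1193 none. Symbols were checked by gene identifier against RefSeq, where 10817 matched and 0 changed. Gapdh was read through control probe sets alone. Values were used as deposited, floored at 100, and log2 was taken. A mean of at least 100 over the 4 arrays was required, which left 7448 probe sets, 6456 of them above the floor on each array. The brightest probe set stood for a gene in the 37 lists, 24 of processes and 13 of cell types.

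limma 3.58.1 in R 4.3.3 fitted 2 arrays against 2 with an intensity trend and Benjamini-Hochberg adjustment over the 7448. Its p-values measure the spread between these arrays. The steps were tested on simulated data. The pairing, the lists and the tests were chosen with earlier results of these data known.

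The genes to be named were set by rule, and the text gives some of them: the 12 farthest apart and the 6 with the widest gap in each direction, 4 bounds in each direction, up to 4 members of each list and any apart, a fixed set including Fos, Egr1 and Ttr, and 2 on either side of the limit. The bright genes, Sirpa and some list members are not covered by it and were picked with their values in view. Counts used pandas 2.3.3 and NumPy 2.4.6 in Python 3.11.15.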

Additional observations from a re-analysis of the deposited data

How the results depend on the processing

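With 1 array per time and dim probe sets in most of the calls, the counts apart depended on the limits and moved together in both pairings. In what follows the first 2 counts are higher and lower in the middle hours and the next 2 higher and lower in the reference pairing. A floor at 200 gave 48, 43, 42 and 45, probe sets averaging at least 500 gave 13, 14, 8 and 12, a limit of 5/4-fold gave 496, 476, 487 and 464, and a 2-fold limit gave 24, 26, 22 and 24. Leaving out each array in turn, which leaves 1 array on a side, gave 230 to 488 higher and 252 to 340 lower in the middle hours, and 246 to 347 and 238 to 490 in the reference. Scaling to a common median turned the split to 153 higher and 165 lower, and quantile normalization to 157 and 159. These scalings moved the median difference of all probe sets by −0.02 and −0.001. A floor at 50, no filter on dim probe sets, plain probe sets alone and no demand for non-overlap kept each count within 1.5 times.

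limma called 4 probe sets with a floor at 200, of Nop58, Cops7a, Gatad2a and Tanc1, each at an adjusted p of 0.0453. In each of the 4 both arrays of one side lay below 200, so the floor set them equal and left that side no spread. Without a filter on dim probe sets, 2 in the reference, of Ptpn2 and Arg2, also had 1 side at the floor. limma called these 2 at an adjusted p of 0.045, and in the middle hours it called 0. In every other setting run, each array left out included, it called 0 in both pairings. The smallest adjusted p in the middle hours ran from 0.0453 to 1 over the settings. With each array left out, the lone array of a side was assumed to vary like the other side.

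Of 43 leading and bright probe sets, 0 changed direction under the settings in which each could be followed. That was 22 of them with a mean of at least 500 and 30 among plain probe sets. Most of these settings could not have turned a direction. The probe sets were picked with both arrays of one side beyond both of the other. Leaving out an array or moving the floor keeps that order, and the filters leave the values as they were. Without the 2 h array 11 were no longer apart, without 4 h 6, without 1 h 8 and without 6 h 8. After scaling to a common median Egr1, Pik3r2, Slpi and Igf2 were not apart, at 0.57, 0.57, 0.57 and −0.77. After quantile normalization Pdgfra and Tyms-ps were not, at −0.58 each. With a floor at 200 it was Iqgap2, Fuca1, Elf4, Idnk, Tex2 and Src, at 0.49, 0.42, −0.50, −0.57, −0.28 and −0.03. Of the 37 list medians, 12 to 15 moved by more than the spread within a side when 1 array was left out, and 3 to 6 under the scalings. No paired analysis was possible because each time had 1 array and the labels give nothing that pairs one time with another.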
